A study of Mus musculus with 6 samples.

Results

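Cholesterol synthesis in the retina was followed through 7 genes chosen by name: *Hmgcs1*, *Idi1*, *Fdft1*, *Sqle*, *Lss* and *Dhcr7*, which encode enzymes of the pathway, and *Srebf2*, which encodes the transcription factor SREBP2. They are 7 of the 31169 genes in the count table, and all 7 were among the 17707 genes tested, each with at least 75 counts in every library. RNA was sequenced from whole retina of C57BL/6 mice that were 2 months old and had received 1 μL of either saline or microbeads 15 μm across in the anterior chamber at 1 month of age. Retinas were taken 4 weeks later, and 3 libraries came from saline-injected and 3 from microbead-injected eyes. The volume and the number of libraries are those of the sample records, and the methods and legends of the study give a larger volume and more retinas. In this model of glaucoma the beads obstruct the outflow of aqueous humor and raise intraocular pressure, while saline-injected eyes serve as controls. The labels name no transgene or deletion and do not say which mouse each retina came from, so p-values measure the spread between these libraries. In whole retina, fewer cells of a type and less RNA per cell cannot be told apart.

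Cells build cholesterol from acetyl-CoA by way of mevalonate, isoprenoid units, squalene and lanosterol. When sterols in the endoplasmic reticulum are scarce, the escort protein SCAP carries SREBP2 to the Golgi, where proteases release the part that enters the nucleus and turns on the genes of the pathway, its own gene among them. When sterols are plentiful, INSIG proteins hold the SCAP and SREBP2 complex back. The retina both makes cholesterol and takes it up from the blood, and neurons and Müller glia express the enzymes.

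SREBP2 binds sterol regulatory elements close to gene starts, usually beside CCAAT boxes, which bind NF-Y, or GC boxes, which bind SP1. The stretches before the RefSeq starts (build GRCm38.p6) of *Hmgcs1*, the first enzyme gene of the 7, of *Idi1*, the only one past the threshold of the test, and of *Srebf2*, the regulator, are printed 5′ to 3′ on the forward strand, on which all 3 genes lie. Each stretch ends before the first base annotated as transcribed, and capitals mark matches on either strand to TCACNCCAC (a core of the sterol regulatory element), CCAAT or GGGCGG (the GC box):
*Hmgcs1*, chr13:119690101-119690350: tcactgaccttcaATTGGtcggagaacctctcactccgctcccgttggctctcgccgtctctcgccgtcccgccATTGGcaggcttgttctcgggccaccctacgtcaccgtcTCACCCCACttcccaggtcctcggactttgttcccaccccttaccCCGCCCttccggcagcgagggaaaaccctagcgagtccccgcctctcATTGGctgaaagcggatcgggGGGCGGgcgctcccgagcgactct
*Idi1*, chr13:8885356-8885500: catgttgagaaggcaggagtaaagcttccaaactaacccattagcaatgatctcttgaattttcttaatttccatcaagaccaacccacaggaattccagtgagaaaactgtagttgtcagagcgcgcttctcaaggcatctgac
*Srebf2*, chr15:82147019-82147180: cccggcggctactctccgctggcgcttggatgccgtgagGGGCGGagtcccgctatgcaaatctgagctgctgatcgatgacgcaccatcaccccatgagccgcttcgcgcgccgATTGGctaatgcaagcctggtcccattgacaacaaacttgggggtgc

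TCACNCCAC, or its reverse complement GTGGNGTGA, occurred in 1.05% of the 32851 windows of 250 bases before RefSeq starts, CCAAT or ATTGG in 33.8% and GGGCGG or CCGCCC in 32.7%. The *Hmgcs1* window held 1 match to TCACNCCAC, with its first base 137 bases before the start, beside 3 matches to CCAAT and 2 to GGGCGG. No match to TCACNCCAC was found in the windows of the other 4 genes with a RefSeq entry. The full 250 bases before the start held 2 matches to CCAAT and 1 to GGGCGG at *Idi1*, 1 and 4 at *Srebf2*, and 1 and 2 at *Lss*. *Dhcr7* has 3 annotated starts, whose windows held 0, 0 and 2 matches to CCAAT and 1, 0 and 3 to GGGCGG. These matches describe letters only, and SREBP2 binding was not measured. *Fdft1* and *Sqle* were not matched.

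The saline libraries held 36085737 to 46481382 counts and the microbead libraries 13574949 to 19834366. Genes of the mitochondrial genome took 3.19 to 3.57% of the counts in saline-injected and 8.90 to 10.6% in microbead-injected retina. The library names in the sample descriptions follow one series in the saline group and a different one in the microbead group, and an effect of the series could not be separated from that of the injection (the 2 cannot be told apart). The 12 rod markers summed to between 62184 and 94529 counts per 1000000 (CPM, on library sizes scaled by TMM) in every library. Saline replicate 1 stood apart: the 11 markers of retinal ganglion cells (RGCs), the output neurons of the retina, summed to 471 CPM there, to 1221 and 1552 CPM in the other saline-injected retinas, and to 1075 to 1445 CPM after microbead injection. The sum of the 8 markers of the pigment epithelium, a layer outside the neural retina, was 12.3 CPM in saline replicate 1 and 56.8 and 245 CPM in the other saline retinas, with *Mlana* at 0 counts in saline replicate 1, and 107 to 127 CPM after microbead injection.

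Of the 7 genes, 1 (*Idi1*) was lower and 0 were higher in microbead-injected retina at an adjusted p-value under 0.05 in edgeR's quasi-likelihood test. Among all genes tested, 12.8% passed that threshold, 6.46% higher and 6.31% lower, so 1 of 7 is a share near this background. At an unadjusted p-value under 0.05, *Idi1*, *Srebf2* and *Sqle* were lower, against 31.4% of all genes tested in either direction. DESeq2 called 1 of the 7, lower, and limma-voom 0. Of the 17707 genes tested, DESeq2 called 1790 higher and 1678 lower, and limma-voom 1173 higher and 1037 lower. The groups did not overlap for *Idi1* and *Sqle*, both lower, a pattern seen in 18.9% of all genes tested (37.8% in either direction). The log2 fold changes of the 7 ran from -1.09 to 0.21 with a median of -0.37, beside a median of -0.03 over all genes tested, and 5 of 7 were negative.

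**Figure D1:**
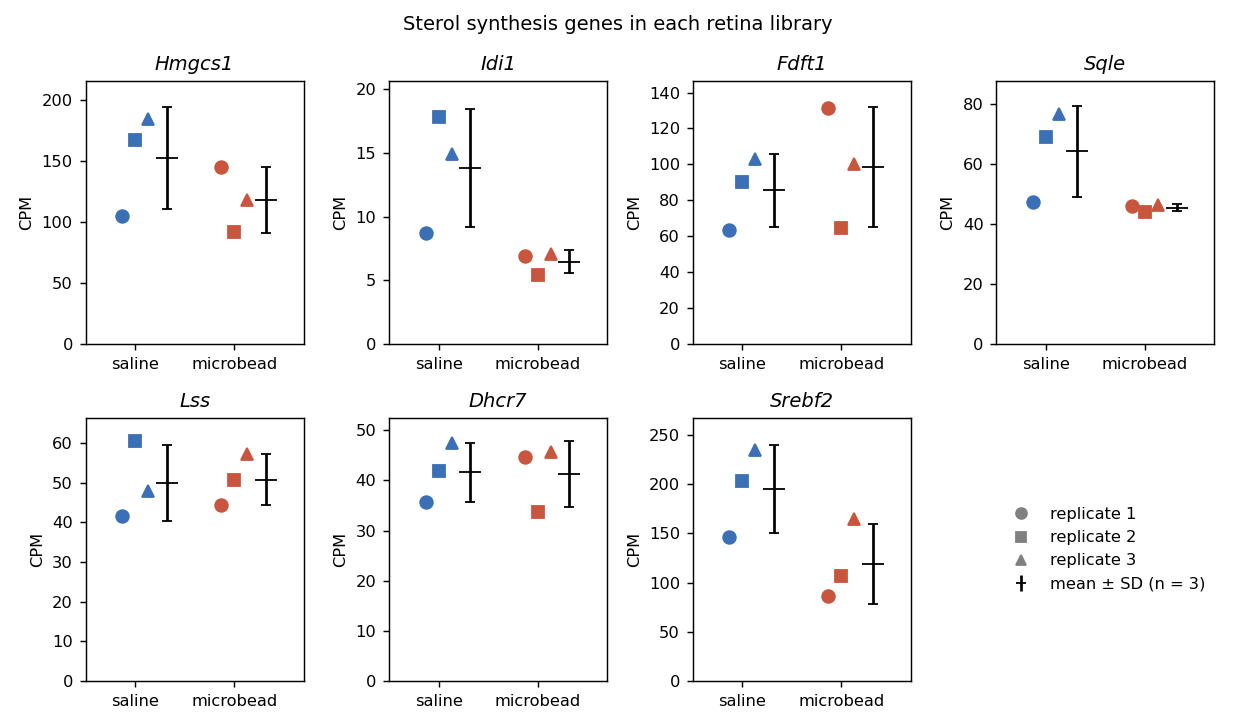
Each panel plots 1 of the 7 genes, with CPM on a linear vertical axis from 0, 3 saline (blue) and 3 microbead (red) libraries as points shaped by replicate, and bars for the mean ± SD (n = 3). The groups are apart for *Idi1* (8.71 to 17.8 against 5.42 to 7.08 CPM) and, narrowly, for *Sqle*, they overlap in the other panels, and saline replicate 1 is the lowest saline point in all 7.

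*Idi1* (ENSMUSG00000058258.14) encodes isopentenyl-diphosphate isomerase, which interconverts the isoprenoid building blocks from which farnesyl diphosphate is assembled. It held 8.71, 17.8 and 15.0 CPM in saline-injected retina (13.8 ± 4.65, SD, n = 3) and 6.90, 5.42 and 7.08 CPM in microbead-injected retina (6.46 ± 0.913, SD, n = 3). Every microbead library was below every saline library, and saline replicate 1 lay closest to the microbead libraries. *Idi1* fell by 53.2%, a log2 fold change of -1.09 (standard error 0.30, adjusted p = 0.0429 in edgeR's quasi-likelihood test), with a 95% interval from -1.76 to -0.43. The value stayed negative in all 6 fits that each left out 1 library, but the call did not: *Idi1* passed the threshold only without saline replicate 1 (-1.34, adjusted p = 0.0126 from edgeR). Without saline replicate 2 its log2 fold change was -0.87 (adjusted p = 0.171 from edgeR), and without saline replicate 3 it was -1.04 (adjusted p = 0.0794 from edgeR). The fits that dropped microbead replicates 1, 2 and 3, in turn, gave -1.15, -0.97 and -1.17, with adjusted p = 0.0929, 0.125 and 0.126 from edgeR. The fits without a library also called fewer genes in all, except that without saline replicate 1: against 2261 with all libraries, 293 genes passed without saline replicate 2, 1480 without saline replicate 3, and 748, 768 and 46 without microbead replicates 1, 2 and 3. *Idi1* had the fewest counts of the 7, from 75 to 858 per library, and with all libraries thinned to 13574949 counts its adjusted p was 0.0567 (edgeR, log2 fold change -1.01).

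*Srebf2* (ENSMUSG00000022463.7), which encodes the regulator itself, stood at 147, 203 and 235 CPM in saline-injected and at 86.1, 107 and 165 CPM in microbead-injected retina. Microbead replicate 3 was above saline replicate 1, so the groups overlapped, while the other microbead libraries were below all saline libraries. Means were 195 ± 44.8 and 119 ± 40.7 CPM (SD, n = 3 each). In edgeR's test the difference was -0.71 on the log2 scale (standard error 0.27, adjusted p = 0.104), and its 95% interval, unadjusted for the number of genes, ran from -1.31 to -0.11. *Srebf2* did not pass the threshold in any fit with 1 library left out, where values ran from -0.53 without microbead replicate 1 to -1.03 without microbead replicate 3 (adjusted p = 0.0517 to 0.256, edgeR). It passed in 1 alternative with all 6 libraries, the fit with no filter on low counts (-0.76, adjusted p = 0.0138 from edgeR), in which the median of all genes shifted to -0.23.

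*Hmgcs1* (ENSMUSG00000093930.1) encodes the cytosolic HMG-CoA synthase, which makes the precursor of mevalonate. Its levels were 105, 167 and 185 CPM in saline-injected and 145, 91.5 and 118 CPM in microbead-injected retina, and the groups overlapped because saline replicate 1 was below microbead replicates 1 and 3. The means were 152 ± 42.0 and 118 ± 26.8 CPM (SD, n = 3 each). The log2 fold change of -0.37 (standard error 0.25, adjusted p = 0.348, edgeR) had a 95% interval from -0.93 to 0.19, which holds both a loss of almost 1 log2 unit and a small gain. Leaving out single libraries moved it from -0.58 without saline replicate 1 to -0.20 without microbead replicate 2, with no call.

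*Sqle* (ENSMUSG00000022351.14) encodes squalene epoxidase, the first oxygen-dependent and a rate-limiting step of the sterol branch. Saline-injected retinas held 47.3, 68.9 and 76.5 CPM and microbead-injected retinas 45.9, 44.0 and 46.3 CPM. The microbead values lay within a narrow band just under saline replicate 1, and the other saline libraries were well above it. Means were 64.2 ± 15.2 and 45.4 ± 1.21 CPM (SD, n = 3 each). Its difference on the log2 scale was -0.50 (standard error 0.20, 95% interval from -0.95 to -0.05), which did not pass edgeR's test (adjusted p = 0.125). Without saline replicate 1 it was -0.68 and past the threshold (adjusted p = 0.0368 from edgeR), while without each of the other 5 libraries it lay between -0.36 and -0.52 and did not pass.

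*Fdft1* (ENSMUSG00000021273.9), the gene of squalene synthase, which joins farnesyl diphosphate molecules and commits them to sterols, held 63.6, 90.1 and 103 CPM in saline-injected and 131, 64.8 and 100.2 CPM in microbead-injected retina. The groups overlapped widely, with the highest value in microbead replicate 1 and both lowest values in saline replicate 1 and microbead replicate 2. The difference on the log2 scale was 0.21 (standard error 0.27, 95% interval from -0.41 to 0.82, adjusted p = 0.643 in edgeR's test). The sign rested on microbead replicate 1, without which the value was -0.06.

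*Lss* (ENSMUSG00000033105.12), which encodes lanosterol synthase, the enzyme that folds squalene epoxide into the first sterol, held 41.7, 60.5 and 47.8 CPM in saline-injected and 44.5, 50.5 and 57.3 CPM in microbead-injected retina. *Dhcr7* (ENSMUSG00000058454.15), which encodes the reductase that converts 7-dehydrocholesterol to cholesterol, held 35.7, 41.8 and 47.4 CPM in saline-injected and 44.6, 33.7 and 45.6 CPM in microbead-injected retina. For both genes the libraries of the groups were interleaved. Their log2 fold changes were 0.02 for *Lss* (standard error 0.19, adjusted p = 0.954, 95% interval from -0.41 to 0.46, edgeR) and -0.01 for *Dhcr7* (standard error 0.19, adjusted p = 0.979, 95% interval from -0.44 to 0.42, edgeR). Changes of up to about 0.4 on the log2 scale in either direction are within these intervals. The sign of both values changed with the filter or the libraries used, and that of *Dhcr7* also with the scaling.

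Per kilobase of the principal transcript, the mean level in saline-injected retina was highest for *Hmgcs1* (43.9 ± 12.1 CPM per kilobase, SD, n = 3). *Srebf2* followed at 38.4 ± 8.82, *Sqle* at 23.3 ± 5.50, *Fdft1* at 23.2 ± 5.46, *Dhcr7* at 14.8 ± 2.09, *Lss* at 10.7 ± 2.05 and *Idi1* at 4.57 ± 1.53 CPM per kilobase. The ranges of neighbours in this order overlapped for *Hmgcs1* and *Srebf2*, for *Sqle* and *Fdft1*, and for *Dhcr7* and *Lss*. They did not overlap for *Srebf2* and *Sqle*, *Fdft1* and *Dhcr7*, or *Lss* and *Idi1*. In microbead-injected retina *Hmgcs1* was again highest at 34.1 ± 7.74 and *Idi1* lowest at 2.14 ± 0.302 CPM per kilobase, with *Fdft1* (26.7 ± 9.01) above *Srebf2* (23.5 ± 8.01) and *Sqle* (16.5 ± 0.439). When levels in saline-injected retina were divided by the length of all annotated exons instead, a choice made after seeing the data, *Fdft1* (20.3) stood above *Sqle* (11.6) and the order was otherwise the same.

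The libraries of a group differed in the same sense for most of these genes. Saline replicate 1 was the lowest of its group for 7 of 7 genes, and for 17 of the 21 pathway enzymes (the 6 enzymes above and 15 others), against 32.8% of all genes tested. Microbead replicate 2 was the lowest of its group for 5 of 7 genes and for 19 of the 21 enzymes, against 31.9% of all genes tested. The same libraries were low for RGC markers: saline replicate 1 was lowest for 11 of 11 and microbead replicate 2 for 9 of 11. Saline replicate 3 was the highest saline library for 5 of 7 genes and for 11 of 11 RGC markers, against 39.8% of all genes tested. It was also highest for 8 of 10 fatty acid genes and for 7 of 7 endothelial, 8 of 8 pigment epithelium and 10 of 12 Müller glia markers. For 1 of 9 isoprenoid genes and 0 of 7 microglia markers it was highest. Other lists thus shared some or much of the pattern. Saline replicate 1 was lowest for 9 of 10 fatty acid genes, 8 of 8 pigment epithelium and 9 of 12 Müller glia markers. It was highest for 7 of 7 microglia markers, and microbead replicate 2 was lowest for 0 of 12 Müller glia markers. The part of cell content in the values of the 7 genes was not tested. Without saline replicate 1, 2 of the 7 genes were past the threshold of edgeR's test (*Idi1* and *Sqle*, both lower), beside 2621 of all 17321 genes tested in that fit, and the median log2 fold change of the 7 was -0.58. Without each of the other libraries 0 of the 7 passed, in fits that called 46 to 1480 of all genes. The coefficient of variation had a median of 23.6% over the 7 genes in saline-injected retina, beside 18.5% over all genes tested, and of 16.0% beside 20.9% in microbead-injected retina.

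**Figure D2:**
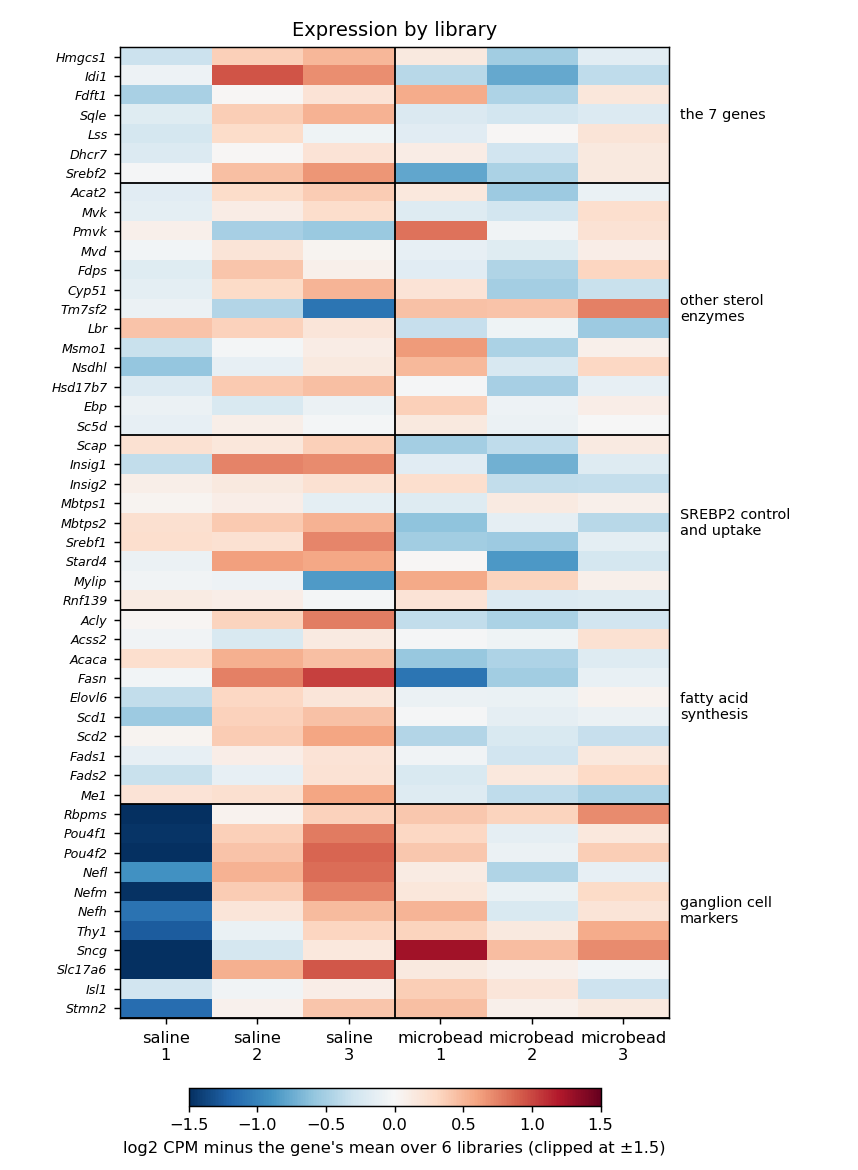
Each row is a gene and each column a library, and the colour is the log2 CPM minus the gene's mean over the 6 libraries, clipped at ±1.5, blue for lower and red for higher. Saline replicate 1 has the lowest saline value for 7 of 7 genes and for 11 of 11 RGC markers at the bottom, and microbead replicate 2 has the lowest microbead value for 17 of the 19 sterol enzymes drawn.

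The 15 other enzymes of the pathway, from acetoacetyl-CoA to cholesterol, had values on both sides of 0, with a median log2 fold change of -0.14. Of the 15, 1 was higher, 0 were lower and 14 did not pass the threshold, beside 6.46% higher and 6.31% lower among all genes tested. *Tm7sf2*, a sterol reductase gene of the middle of the pathway, held 13.2, 10.3 and 6.53 CPM in saline-injected and 19.0, 18.8 and 23.6 CPM in microbead-injected retina. All microbead libraries were above all saline libraries, and the gene rose by 1.03 on the log2 scale (standard error 0.27, adjusted p = 0.0398 in edgeR's test). Its exons overlap those of *Vps51* on the same strand, so its counts are uncertain, and of the 6 fits with 1 library left out it passed only without saline replicate 1. *Lbr*, which encodes a second reductase for the same step, was at -0.63 (adjusted p = 0.0657 from edgeR). *Pmvk*, the gene of phosphomevalonate kinase, was at 0.67 (adjusted p = 0.114 from edgeR) and was called higher without saline replicate 1. Taken with the 6 enzymes of the 7, 13 of 21 enzymes had a negative and 8 a positive log2 fold change.

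**Figure D3:**
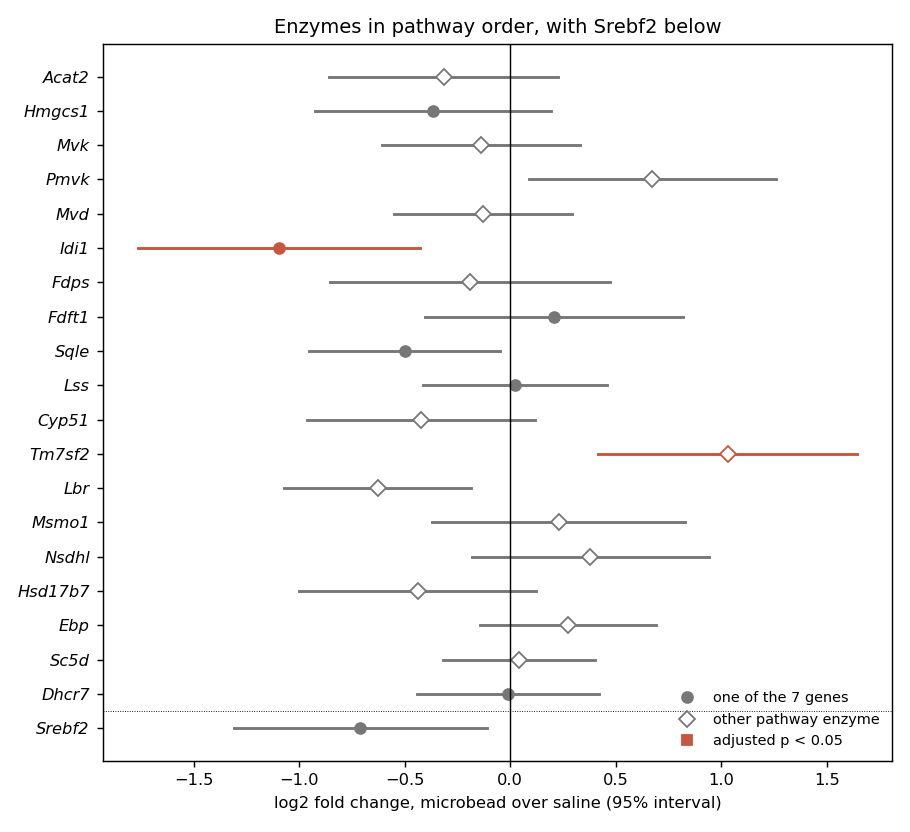
Points show the log2 fold change of microbead over saline for 19 enzymes from the early steps at the top to the late ones, with *Srebf2* below the dotted line, and lines are 95% intervals; filled circles are the 7 genes, open diamonds other enzymes, and red marks an adjusted p-value under 0.05. *Idi1* at -1.09 and *Tm7sf2* at 1.03 are the red points, and the intervals of 14 of the 19 enzymes drawn include 0.

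Of 12 genes that control SREBP2 or carry out sterol uptake, 0 were higher, 4 were lower and 8 did not pass. Their median log2 fold change was -0.71, and 6.31% of all genes tested were lower. Among the 4 were *Srebf1*, the gene of the sister factor that favours fatty acid genes (-0.81, adjusted p = 0.0340, edgeR), and *Mbtps2*, the gene of the site-2 protease that releases the active part of SREBP2 (-0.76, adjusted p = 0.0370, edgeR). *Srebf1* stood at 163, 161 and 228 CPM in saline-injected and 95.6, 94.1 and 125 CPM in microbead-injected retina, with no overlap, where *Srebf2* overlapped. Named after their values were seen, *Scap* was at -0.48 (adjusted p = 0.137) and *Insig1* at -0.78 (adjusted p = 0.105), both from edgeR. Without 1 library the number called lower in this list was 7 (saline replicate 1), 1 (saline replicate 2, saline replicate 3, microbead replicate 1 or microbead replicate 2) or 0 (microbead replicate 3). Except for that without saline replicate 1, these fits also called fewer of all genes.

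Fatty acid synthesis, the other branch under SREBP control, had 5 of 10 genes lower and 0 higher, beside 6.31% lower among all genes tested. Its median log2 fold change was -0.45. *Fasn*, the gene of fatty acid synthase, held 162, 283 and 339 CPM in saline-injected and 77.8, 116 and 154 CPM in microbead-injected retina, a log2 fold change of -1.17 (adjusted p = 0.0406 from edgeR) without overlap. *Acaca*, which encodes acetyl-CoA carboxylase (-0.82), *Acly*, which encodes the lyase that supplies cytosolic acetyl-CoA (-0.78), *Me1*, whose enzyme supplies NADPH (-0.70), and *Scd2*, a desaturase gene (-0.69), were lower too (adjusted p = 0.0221 to 0.0446, edgeR). With 1 library left out, 5 of the 10 passed without saline replicate 1, 1 (*Acaca*) without saline replicate 3, and 0 without saline replicate 2 or any 1 microbead library, fits that also called fewer of all genes. The log2 fold changes stayed negative in these fits, from -1.44 to -0.94 for *Fasn* and from -0.94 to -0.74 for *Acaca*. Müller glia, which make fatty acids and sterols, had 4 of 12 markers lower and 0 higher, against 6.31% lower among all genes tested. The 4 were *Sox9* at -1.46, *Crym* at -1.41 and, named after their values were seen, *Dkk3* and *Vim*. The 12 markers summed to 4621 to 8870 CPM in saline-injected and 4314 to 5020 CPM in microbead-injected retina. Endothelial markers, for which the background is likewise 6.31% lower among all genes tested, were lower for 4 of 7 (*Tie1* at -1.23, *Esam* at -1.01 and, named likewise, *Flt1* and *Cldn5*) and higher for 0, with sums of 453 to 650 and 278 to 424 CPM. Without saline replicates 1, 2 and 3 and microbead replicates 1, 2 and 3, in turn, the markers called lower numbered 3, 2, 2, 0, 0 and 0 for Müller glia and 4, 0, 1, 0, 2 and 0 for endothelium. Except for that without saline replicate 1, these fits also called fewer of all genes. The part of Müller glia and endothelium in the lower lipid genes was not tested.

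Genes for sterol export, storage and oxysterols had 0 of 13 tested genes past the threshold of edgeR's test, beside 12.8% of all genes tested. At an unadjusted p-value under 0.05 there were 5 of the 13, beside 31.4% of all genes tested. DESeq2 called 2 (*Cyp46a1* higher and *Abcg1* lower) and limma-voom 0. Of the 17707 genes tested, DESeq2 called 1790 higher and 1678 lower, and limma-voom 1173 higher and 1037 lower. The median log2 fold change of the 13 was -0.21. *Cyp46a1*, which encodes the neuronal enzyme that hydroxylates cholesterol for removal, was at 0.92 (adjusted p = 0.0739), *Lcat*, whose enzyme esterifies cholesterol on lipoproteins, at 0.91 (adjusted p = 0.104), *Nr1h3*, the gene of the oxysterol receptor LXRα, at 0.68 (adjusted p = 0.190), and *Abcg1*, a sterol exporter gene, at -0.56 (adjusted p = 0.0749, all from edgeR). The isoprenoid branch uses farnesyl diphosphate for products other than sterols. In it 1 of 9 genes was higher and 0 were lower, beside 6.46% higher among all genes tested. The 1 was *Pdss1*, a subunit gene of the enzyme that builds the coenzyme Q tail (1.14, adjusted p = 0.0371 from edgeR), which with 1 library left out passed only without saline replicate 1, while *Pdss2*, the gene of its partner subunit, was at -0.54 (adjusted p = 0.132), *Pggt1b*, a prenyltransferase subunit gene, at -0.84 (adjusted p = 0.162) and *Nus1*, which acts in dolichol synthesis, at -0.32 (adjusted p = 0.193).

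**Figure D4:**
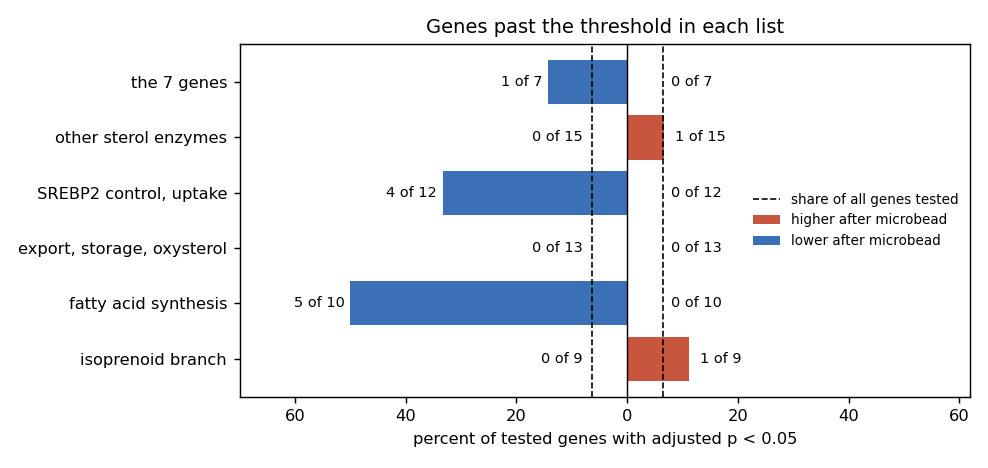
Bars give the percent of tested genes in each list with an adjusted p-value under 0.05, higher after microbead injection to the right (red) and lower to the left (blue), with the counts beside them, and dashed lines mark the shares over all genes tested, 6.46% higher and 6.31% lower. The 7 genes have 1 lower call, and the lists with 4 of 12 and 5 of 10 lower calls are those for SREBP2 control and for fatty acid synthesis.

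In the GENCODE vM21 annotation of GRCm38, all 7 genes are protein coding. *Hmgcs1* lies on the forward strand of chromosome 13 from 119690379 to 119708260, with 11 exons in its principal transcript, and *Idi1* on the same strand and chromosome from 8885501 to 8892451, with 5 exons. On chromosome 15, *Sqle* lies from 59315077 to 59331192 with 11 exons and *Srebf2* from 82147181 to 82205379 with 19, both forward. *Lss* lies on chromosome 10 from 76531588 to 76557138 with 22 exons and *Dhcr7* on chromosome 7 from 143823145 to 143848410 with 9, also forward. *Fdft1* is on the reverse strand of chromosome 14 from 63145150 to 63179578 with 10 exons.

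Cut into stretches of 100 bases, the annotated transcripts shared stretches with transcripts of another gene, at a share of 21.9% for *Idi1*, 18.3% for *Fdft1*, 8.22% for *Hmgcs1*, 0.548% for *Lss*, 0.126% for *Dhcr7* and 0 for *Sqle* and *Srebf2*. For *Idi1* the other genes include the pseudogene *Gm13502* and *Gm48574*, which overlaps it on the opposite strand. For *Fdft1* they were *Ctsb*, whose exons overlap its own on the opposite strand, and the pseudogene *Gm6781*, and for *Hmgcs1* mainly the antisense gene *Gm48342*. The methods of the study name stranded library kits, but whether counting used the strand is not given in the sources used here. The counts of *Idi1*, *Fdft1* and *Hmgcs1* are therefore less certain than those of *Sqle* and *Srebf2*. *Gm13502* itself held 1 to 5 counts per library, against 75 to 858 for *Idi1*.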

How the data were processed

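Poly(A) RNA from 3 saline and 3 microbead retina libraries was compared, and groups were taken from the sample records. Per the submitters' processing notes, the authors used STAR 2.5.3a with GRCm38.p5, featureCounts 1.15.2 and DESeq2 1.14. The authors deposited raw counts per gene and library, without normalization. How reads with several matches were counted is not given in the sources used here. Columns with the authors' own comparison (mean, fold change, p-values and calls) were not used.

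Here, genes were filtered by filterByExpr (minimum count 10, minimum total 15), libraries were scaled by TMM, and a two-sided quasi-likelihood test was run with edgeR 4.0.16 in R 4.3.3, with Benjamini-Hochberg adjustment over 17707 genes and a threshold of 0.05. CPM are counts per 1000000 of the scaled size. DESeq2 1.42.0 and limma 3.58.1 (voom), other scalings and filters, stricter thresholds, thinning to 13574949 counts, the replicate number as a block and each library left out in turn were the alternatives. Of these steps, only the edgeR test was tried on simulated counts. At the smallest library, 3 counts are 0.217 CPM, which covers counting error only. Positions come from GENCODE vM21 and promoter sequences from RefSeq.

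Some genes of the lists are counted but not reported by name here. The 7 genes and the lists were chosen with earlier results of these data known. Named are the 7 genes, in each other pathway list every gene past the threshold, filled to 4 with the largest log2 fold changes, the 2 markers of each list with the largest log2 fold change, and the 3 genes whose profile was nearest to that of the 6 enzymes. No 2 libraries of a group were copies: chi-square per degree of freedom between their counts was at least 22.1.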

Additional observations from a re-analysis of the deposited data

How the results depend on the processing

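Of 594 log2 fold changes of 33 named genes under the alternatives, 476 kept their direction and their side of the threshold, 88 fell below it, 17 passed it and 13 changed sign, all 13 in *Fdft1*, *Lss* and *Dhcr7*. Only genes called in the main fit could fall below the threshold, so the 88 are not to be read as a share of all 594. The 594 also include the stricter thresholds, which used the values of the main fit and could not change a direction. Leaving out 1 library moved *Fdft1* from -0.059 to 0.45, *Lss* from -0.096 to 0.18 and *Dhcr7* from -0.11 to 0.13. *Lss* was -0.029 with no filter. *Dhcr7* was 0.0095 with RLE, 0.034 with upper-quartile scaling, 0.011 without mitochondrial genes, 0.059 with library sizes without the 100 most abundant genes, 0.0019 when every library had to hold 10 counts and 0.030 after thinning. Calls among the 7 genes (1), the 15 other enzymes (1), the 44 neighbouring lipid genes (10) and all genes (2261) were 2, 3, 16 and 3720 with no filter, which split all calls into 1511 higher and 2209 lower against 1143 and 1118, and 0, 0, 0 and 87 at an adjusted p-value under 0.01. The cause was not tested. Of the 7 genes, 0 passed with limma-voom, after thinning and with library sizes without the 100 most abundant genes, and of the other enzymes 0 passed after thinning and 2 with DESeq2, which called 3621 genes in all. Requiring also a 2-fold change left 4 neighbouring genes and 1248 genes in all. Leaving out 1 library gave 0 to 2, 0 to 3, 0 to 13 and 46 to 2621 calls. With the replicate number as a block, calls were 0, 0, 5 and 905. Deviations of same-numbered libraries correlated at -0.019, 0.19 and -0.0035, and those of differently numbered libraries at -0.25 to 0.16. So few values cannot show whether the numbers pair the libraries, and the labels give no pairing. The microbead libraries set the depth limit, with as few as 75 counts of *Idi1*.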

Other observations

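The 3 genes with a mean of at least 10 CPM whose profile over the 6 libraries was nearest to the mean profile of the 6 enzymes, among 10345 genes ranked by the root mean square difference of centred log2 CPM, were *Grm2*, *Zfp423* and *Rps6ka4*. *Grm2*, which encodes a metabotropic glutamate receptor, held 16.2, 24.8 and 27.6 CPM in saline-injected and 18.8, 15.2 and 19.4 CPM in microbead-injected retina. Its root mean square distance from the mean profile was 0.066 on the log2 scale, and its log2 fold change between the groups was -0.36 (adjusted p = 0.329 from edgeR). The distance from the mean profile was 0.068 for *Zfp423*, a zinc finger gene, and 0.074 for *Rps6ka4*, a kinase gene, and their log2 fold changes were -0.24 and -0.25. By the same distance, *Hmgcs1* was the nearest of the 6 enzymes to their mean profile at 0.12 and *Idi1* farthest at 0.40.

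Other marker lists were measured in the same libraries, in which 6.46% of all genes tested were higher and 6.31% lower in edgeR's test. At an unadjusted p-value under 0.05 there were 31.4% of all genes tested, in either direction. Of these 17707 genes, DESeq2 called 1790 higher and 1678 lower, and limma-voom 1173 higher and 1037 lower. Of 12 rod markers 1 (*Nrl*, -0.97) was lower, and *Gngt1* was at 0.66. Of 11 RGC markers 0 passed the threshold of edgeR's test, with 1 (*Sncg*, 1.33) at an unadjusted p-value under 0.05 and 0 calls by DESeq2 or limma-voom, and *Rbpms* was at 0.71. The 8 pigment epithelium markers gave 0 calls with each tool and 0 at an unadjusted p-value under 0.05, with *Mlana* at 1.58 and *Pmel* at 0.94. *Mlana* was near the floor, with 0, 3 and 14 counts in the saline and 3, 9 and 9 in the microbead libraries. Of 7 microglia markers 0 passed in edgeR, 3 were at an unadjusted p-value under 0.05 and DESeq2 called 3 lower, with *Tmem119* and *Cx3cr1* both at -1.32. Saline replicate 1 had the highest saline value for 7 of 7 microglia markers, and these summed to 134 CPM in it. The sums for saline replicates 2 and 3 were 43.1 and 65.3 CPM. Without saline replicate 1 the median log2 fold change of the list was 0.51 instead of -0.50. Of 4 astrocyte markers *Aldh1l1* was lower (-1.23) and *S100b* was at 0.62. Of 4 oligodendrocyte markers tested 1 (*Mbp*, -0.64, named after its value was seen) was lower, and *Mag*, at -1.53, was not past the threshold. *Mag* held 3, 2 and 5 counts in the microbead libraries, near the floor of 3 counts. The 2 lens markers tested, *Bfsp2* (-1.20) and *Bfsp1* (0.01), gave 0 calls with each tool and 0 at an unadjusted p-value under 0.05.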
